A study of Mus musculus with 16 samples.

Results

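The 4 mature miRNAs described here are mmu-miR-199a-3p, mmu-miR-199a-5p, mmu-miR-214-3p and mmu-miR-214-5p (named without the species prefix from here on), the arms of the miR-199a and miR-214 hairpins. They were chosen by name, with earlier results of these data known, from the count table, which lists 1167 mature miRNAs. All 4 were among the 449 miRNAs that passed the filter on low counts. Small RNA was sequenced from 3T9 cells, an immortalised fibroblast line grown from mouse embryos. In every group the cells had been held without serum for 72 h. The groups are cells that received no serum afterwards (0 h) and cells given medium with 10% fetal bovine serum for 1, 2, 4, 6, 8, 10 or 12 h. Each of the 8 times has 2 libraries, which the series describes as independent experiments, and a further time point was not analysed here. The labels name no genetic change, and all groups are the same line. Each of the 2 sequencing runs named in the table's header holds all libraries of 1 replicate number, so run and experiment cannot be told apart.

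A miRNA is cut from a hairpin in its precursor, and either arm can be loaded into an Argonaute protein, where bases 2 to 8 (the seed) choose the messages that are repressed. After loading, the 3' end can be shortened by exonucleases or lengthened by enzymes that add A or U. miR-199a and miR-214 are abundant in mesenchymal cells. In mouse, one of the miR-199a hairpins and the miR-214 hairpin lie in Dnm3os, a long non-coding RNA needed for normal skeletal growth, and Twist1, a transcription factor of mesenchymal cells, is known to raise its expression. miR-214-3p is known for repressing Ezh2, a Polycomb methyltransferase.

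The mature sequences are printed because the end classes described further on are defined against them. They come from RefSeq (build GRCm38.p6), run 5′ to 3′ and have the seed in capitals.
miR-214-3p: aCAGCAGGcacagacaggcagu
miR-214-5p: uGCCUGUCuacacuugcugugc
miR-199a-3p: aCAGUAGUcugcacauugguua
miR-199a-5p: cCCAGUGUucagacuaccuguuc
No seed is shared between the 4. The seed of miR-214-3p is also that of miR-761, which has no entry in the count table. miR-199a-3p is identical in sequence to miR-199b-3p, also without an entry, so reads of that hairpin cannot be told apart from its own.

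The hairpins of the chromosome 1 cluster are printed to show where the arms lie and which bases follow them, with both mature arms in capitals.
Mir199a-2: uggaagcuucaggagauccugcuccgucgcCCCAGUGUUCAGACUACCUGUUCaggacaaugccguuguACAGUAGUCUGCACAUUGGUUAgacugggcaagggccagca
Mir214: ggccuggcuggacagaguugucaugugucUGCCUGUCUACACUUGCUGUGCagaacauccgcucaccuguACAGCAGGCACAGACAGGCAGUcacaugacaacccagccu
Mir199a-2 spans chr1:162217814-162217923 and Mir214 spans chr1:162223368-162223477 (GRCm38, + strand), with 5444 bases between them. Both lie in an exon of Dnm3os and on the strand opposite an intron of Dnm3, a dynamin gene (GENCODE annotation). Within Mir214, miR-214-5p lies at chr1:162223397-162223418 and miR-214-3p at chr1:162223438-162223459. Within Mir199a-2, miR-199a-5p lies at chr1:162217844-162217866 and miR-199a-3p at chr1:162217883-162217904. A further copy, Mir199a-1, lies at chr9:21496495-21496564 on the strand opposite an intron of Dnm2 and yields the same mature sequences. Reads of the miR-199a arms can therefore come from either locus, and those of miR-199a-3p also from the hairpin of miR-199b-3p. Both miR-214 arms have 1 locus.

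Libraries held 5852087 to 7783249 miRNA reads, of which the 4 miRNAs took 1.57% to 2.09%. Levels are read counts scaled by TMM-adjusted library totals (CPM). With no reads of a miRNA in a library its level could still be as high as 0.385 to 0.513 CPM, from 3 counts of the total, which covers counting error only. The summed level of 5 fibroblast miRNAs, 3 of them among the 4 described, was 125900 to 174200 CPM. Most of that sum was miR-143-3p, which is not among the 4 and was at 108900 to 155800 CPM. The summed levels of 5 epithelial, 5 blood, 3 muscle, 1 liver and 5 pluripotency miRNAs stayed at or below 4.09 CPM in every library. Of 3 neural miRNAs, miR-124-3p, the defining one, had no reads listed, miR-9-5p was at 3.92 to 10.4 CPM and miR-128-3p at 174 to 352 CPM.

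miR-214-3p fell over the 12 h of serum to 56.8% of its starting level, and the other 3 miRNAs were not called changed by the same tests. Its level was 1028 and 1059.5 CPM at 0 h (replicate 1 and replicate 2), 929.6 and 1076 CPM at 1 h, 809 and 772 CPM at 2 h, and 843 and 901 CPM at 4 h. It was 807 and 842 CPM at 6 h, 779 and 788 CPM at 8 h, 682 and 659.8 CPM at 10 h, and 607 and 580.3 CPM at 12 h. Both libraries of every time from 2 h on lay below both 0 h libraries, and the 12 h libraries were the lowest of the 16 in each run. The mean passed from 1044 ± 22.0 CPM (SD, n = 2) at 0 h to 790.3 ± 25.9 CPM at 2 h. It stood at 872 ± 41.0 CPM at 4 h before reaching 593 ± 18.6 CPM at 12 h.

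The change of miR-214-3p over the course passed edgeR's quasi-likelihood test (adjusted p = 0.00302), as did that of 13.8% of all tested miRNAs. Against 0 h its log2 difference was -0.06 ± 0.12 (SE) at 1 h, -0.40 ± 0.12 at 2 h, -0.26 ± 0.12 at 4 h and -0.34 ± 0.12 at 6 h, none of them called. With the replicate number as a block the differences at 2 h and 6 h were called (edgeR adjusted p = 0.0197 and 0.0243, against 0.105 at both times without it), and DESeq2 called that at 2 h (adjusted p = 0.0460). The difference was -0.41 ± 0.12 at 8 h (adjusted p = 0.0451, edgeR), -0.64 ± 0.12 at 10 h (adjusted p = 0.0029) and -0.81 ± 0.12 at 12 h (adjusted p = 0.000295). Of all tested miRNAs 0.445%, 2.45%, 7.57% and 7.8% were called in either direction at 1, 2, 4 and 6 h. At 8 h 9.58% were called, at 10 h 11.8% and at 12 h 14.3%, with 6.01% called lower at 12 h. The 8 h call was lost in 19 of 25 alternative settings, with an adjusted p of up to 0.337. The 10 h call was lost in a fit of the libraries of those times alone (log2 difference -0.59, adjusted p = 0.0737, edgeR).

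As a straight line over the 16 libraries, miR-214-3p fell by 0.0577 ± 0.00798 log2 units per hour (adjusted p = 2.19e-05, edgeR). Of the 449 slopes, whose median was -0.000945, 42 were as low or lower, its own included, and 13.1% of miRNAs were called lower and 25.2% in either direction. The slope was -0.0486 in the run of replicate 1 alone and -0.0635 in the run of replicate 2 alone, and it was called in both (edgeR adjusted p = 0.000949 and 0.00522).

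**Figure D1:**
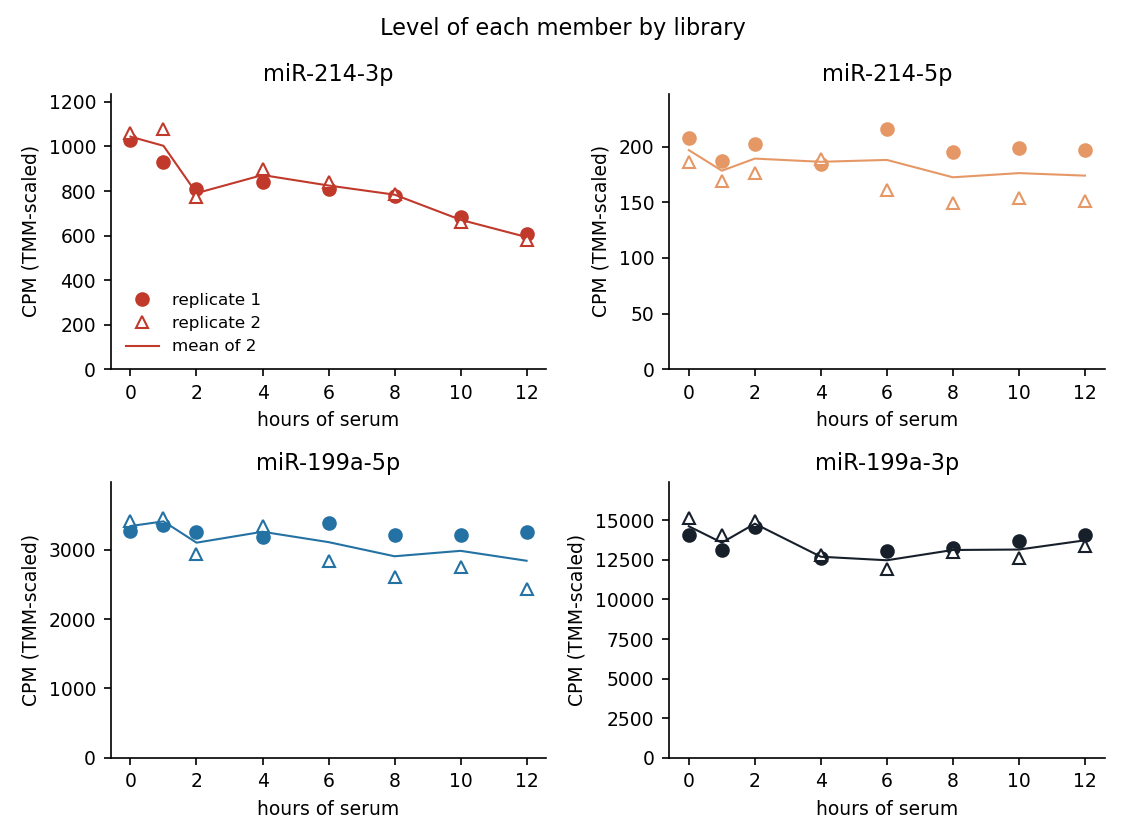
Level in CPM on TMM-scaled totals (vertical axes start at 0) of each of the 4 miRNAs against hours of serum; filled circles are replicate 1, open triangles replicate 2 and lines the mean of the 2. miR-214-3p passed from 1028 and 1059.5 CPM at 0 h to 607 and 580.3 CPM at 12 h with the runs close together, whereas both miR-214-5p and miR-199a-5p ended lower in replicate 2 than in replicate 1.

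miR-214-5p, the other arm of the same hairpin and the least abundant of the 4, had 207 and 186 CPM at 0 h, and 197 and 151 CPM at 12 h. Its libraries ranged from 149.7 to 215 CPM over the course, and the groups at 0 h and 12 h overlapped. The log2 difference at 12 h was -0.18 ± 0.20 (adjusted p = 0.618, edgeR) and the slope -0.0116 ± 0.0104 per hour (adjusted p = 0.464). From 6 h on it was higher in replicate 1 than in replicate 2 at every time, by 45.5 to 54.7 CPM.

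miR-199a-5p had 3263 and 3416 CPM at 0 h, and 3253 and 2426 CPM at 12 h. The libraries of replicate 1 stayed between 3176 and 3382 CPM, while those of replicate 2 passed from 3416 to 2426 CPM. The log2 difference at 12 h was -0.23 ± 0.15 (adjusted p = 0.371, edgeR) and the slope -0.0196 ± 0.008 per hour (adjusted p = 0.0783). The slope was called with the replicate number as a block (-0.0205, edgeR adjusted p = 0.0248). It was 0.000604 in the run of replicate 1 alone and -0.0389 in that of replicate 2 alone (adjusted p = 0.0167). The difference in slope between the runs had a raw p of 0.00165 and an adjusted p of 0.341 (edgeR, over all tested miRNAs), so it was not called.

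miR-199a-3p, the most abundant of the 4, had 14089.8 and 15140.4 CPM at 0 h, and 14065 and 13394 CPM at 12 h. Its libraries lay between 11904 and 15140.4 CPM. The log2 difference at 12 h was -0.09 ± 0.09 (adjusted p = 0.585, edgeR) and the slope -0.00878 ± 0.00592 per hour (adjusted p = 0.303). When totals were left unscaled, the median of all tested miRNAs moved to -0.15 log2 units at 12 h, and the slopes of miR-199a-3p and miR-199a-5p were then called lower (-0.0222 and -0.0332 per hour). Counting only reads equal to the reference, the 10 h difference of miR-199a-3p was called (log2 -0.37, edgeR adjusted p = 0.0457, against -0.15 and 0.349 with all its reads).

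The direct comparison of miR-214-3p with its neighbours used the ratio of reads within each library, which needs no scaling. The ratio of miR-214-3p to miR-214-5p reads passed from 5.32 ± 0.515 (SD, n = 2) at 0 h to 3.46 ± 0.537 at 12 h. On the log2 scale its slope was -0.0446 ± 0.0128 per hour (2-sided permutation test with 100000 resamples, adjusted p = 0.00736 over the 6 pairs). Against miR-199a-5p the ratio passed from 0.313 ± 0.00355 to 0.213 ± 0.0373, with a slope of -0.0367 ± 0.00924 (adjusted p = 0.00357, permutation test). Against miR-199a-3p it passed from 0.0715 ± 0.00213 to 0.0432 ± 0.000141, with a slope of -0.0485 ± 0.0108 (adjusted p = 0.00357, permutation test). miR-214-3p thus fell relative to each of the other 3 miRNAs by a direct test. None of the other 3 pairs was called: the slopes were 0.00792 ± 0.00591 for miR-214-5p against miR-199a-5p, -0.00391 ± 0.0102 for miR-214-5p against miR-199a-3p, and -0.0118 ± 0.00903 for miR-199a-5p against miR-199a-3p. Their adjusted p were 0.252, 0.703 and 0.252 by the same permutation test. Within the run of replicate 1 alone the 3 slopes of miR-214-3p were -0.0515, -0.0491 and -0.0512 and were called. In the run of replicate 2 alone they were -0.0377, -0.0243 and -0.0458 and were not called (adjusted p = 0.155 each, permutation test over 8 libraries).

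**Figure D2:**
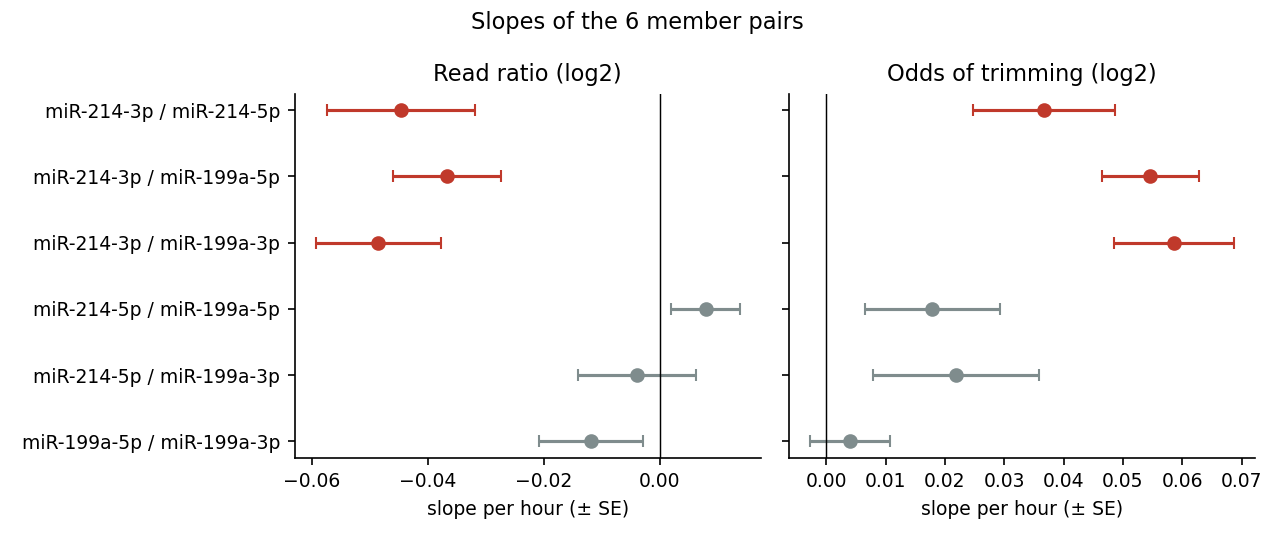
Slope per hour with its SE for the 6 pairs: left, the log2 ratio of reads of the first to the second miRNA; right, the difference in log2 odds of trimming. Red points are the 3 pairs with miR-214-3p and grey points the others; the red ratio slopes lie between -0.0485 and -0.0367 and the grey ones between -0.0118 and 0.00792.

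Each miRNA's reads fall into 4 classes by their ends: equal to the reference, trimmed (shorter), extended at the 3' end or extended at the 5' end. The classes are taken as their names say, and the names do not tell at which end a trimmed read is short. In miR-214-3p at 0 h, 52.8% ± 0.126 (SD, n = 2) of reads were equal to the reference, 18.8% ± 1.49 trimmed, 15.9% ± 0.987 extended at the 5' end and 12.5% ± 0.380 at the 3' end. miR-214-5p was mostly equal to the reference (85.6% ± 0.705) and miR-199a-5p mixed (52.3% ± 0.131), whereas 68.3% ± 2.22 of miR-199a-3p reads were trimmed. The 4 miRNAs therefore began from different mixtures of ends.

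The fall of miR-214-3p was uneven over its classes. Reads equal to the reference fell from 552 ± 10.3 to 274 ± 9.40 CPM between 0 h and 12 h, and those extended at the 5' end from 166 ± 6.80 to 75.0 ± 4.47 CPM. Trimmed reads were at 196 ± 19.7 CPM at 0 h and 162 ± 6.24 CPM at 12 h. At 12 h the reference class held 49.6% of its 0 h level, the 5' extended class 45.3%, the 3' extended class 63.2% and the trimmed class 82.7%. In a fit with each class of each miRNA as an entry of its own, the slope of the reference class was -0.0798 ± 0.00816 log2 units per hour and that of the 5' extended class -0.0891 ± 0.00911 (adjusted p = 3.36e-07 for both, edgeR). The 3' extended class had a slope of -0.0396 ± 0.0118 (adjusted p = 0.0166), a call lost in 8 alternative settings, among them each run alone. The slope of the trimmed class, -0.0168 ± 0.0094, was not called (adjusted p = 0.203). Of the 1000 class entries tested, 26.5% were called in either direction.

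**Figure D3:**
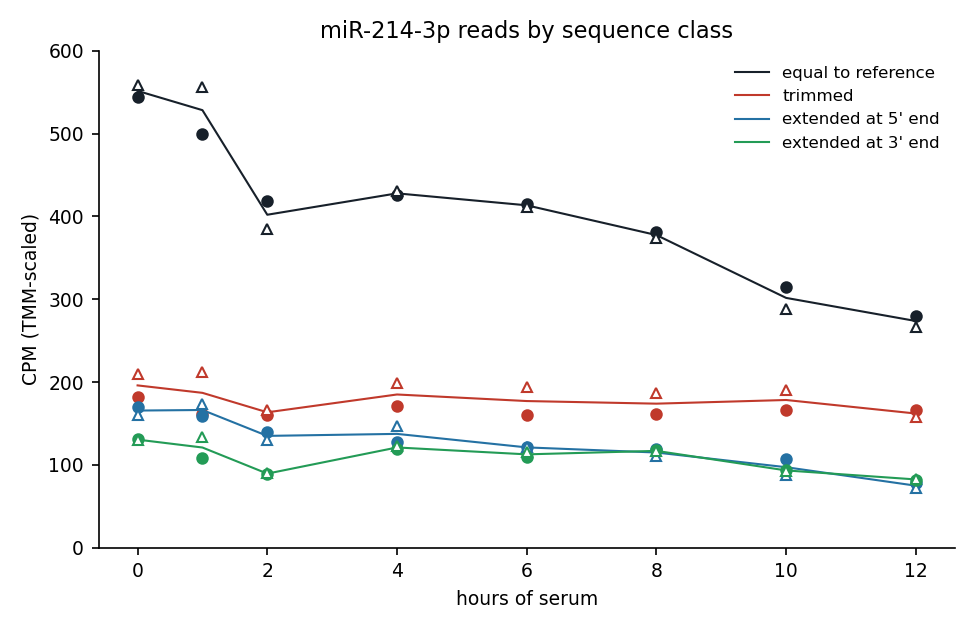
Reads of miR-214-3p in CPM (TMM-scaled) by end class against hours of serum; circles are replicate 1, triangles replicate 2 and lines the mean of the 2. Reads equal to the reference passed from 552 to 274 CPM and trimmed reads from 196 to 162 CPM.

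The trimmed share of miR-214-3p rose over the course. It was 17.7% and 19.8% at 0 h (replicate 1 and replicate 2), then 17.4% and 19.7% after 1 h, 19.8% and 21.6% after 2 h, and 20.3% and 22.2% after 4 h. It was 19.9% and 23.0% after 6 h, 20.7% and 23.7% after 8 h, 24.4% and 28.8% after 10 h, and 27.5% and 27.2% after 12 h, from 1003 to 1552 trimmed reads per library. Replicate 2 was higher than replicate 1 at every time but 12 h, and both 10 h and both 12 h libraries lay above all earlier ones. The log2 odds of a read being trimmed rose by 0.0582 ± 0.00852 per hour (adjusted p = 2.65e-05, edgeR with a term per library). Of 225 miRNAs tested this way, 14 had a slope as high or higher, its own included. The call rate was 45.8% in either direction and 24% for a higher share, so a rising trimmed share was common among these miRNAs. Of the 36 tested miRNAs whose level was called lower by the trend test, miR-214-3p among them, 19 (52.8%) were called higher in trimmed share, against 3 of 40 (7.5%) of those called higher in level. These counts come from the same libraries and carry no test. The neighbours compared with miR-214-3p were not called lower in level. The slope was 0.0603 in the run of replicate 1 alone and 0.0561 in that of replicate 2 alone, called in both.

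The trimmed shares of the neighbours were not called changed. miR-214-5p had 13.7% ± 1.01 (SD, n = 2) trimmed reads at 0 h and 15.8% ± 0.0570 at 12 h, from 144 to 208 such reads per library (slope 0.0215 ± 0.0131, adjusted p = 0.201, edgeR). miR-199a-5p had 25.9% ± 1.50 at 0 h and 26.6% ± 1.96 at 12 h (slope 0.00359 ± 0.00564, adjusted p = 0.659). miR-199a-3p had 68.3% ± 2.22 at 0 h and 68.4% ± 0.683 at 12 h (slope -0.00036 ± 0.00358, adjusted p = 0.951). When trimmed reads were set against reads equal to the reference only, both miR-199a arms were called higher: 0.0206 per hour for miR-199a-3p (edgeR adjusted p = 0.000698) and 0.0169 for miR-199a-5p (edgeR adjusted p = 0.0188). In level, the trimmed reads of miR-199a-5p were called lower (slope -0.0217 ± 0.00726, edgeR adjusted p = 0.0318), a call lost in 15 of 20 alternative settings, with an adjusted p of up to 0.760.

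Tested directly, the log2 odds of trimming of miR-214-3p rose faster than those of miR-199a-5p by 0.0546 ± 0.00817 per hour and faster than those of miR-199a-3p by 0.0586 ± 0.0101 (adjusted p = 0.00018 for both, permutation test over the 6 pairs). Against miR-214-5p the difference was 0.0367 ± 0.0120 (adjusted p = 0.02, permutation test). That last call was lost without the replicate 1 library of 12 h (0.0349, permutation adjusted p = 0.051), without both 0 h libraries (0.0384, adjusted p = 0.0504) and in each run alone (0.0413 and 0.0321, adjusted p = 0.21 and 0.126). The pairs without miR-214-3p had differences of 0.0179 ± 0.0114 (miR-214-5p against miR-199a-5p), 0.0219 ± 0.0140 (miR-214-5p against miR-199a-3p) and 0.00399 ± 0.00677 (miR-199a-5p against miR-199a-3p), none called.

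**Figure D4:**
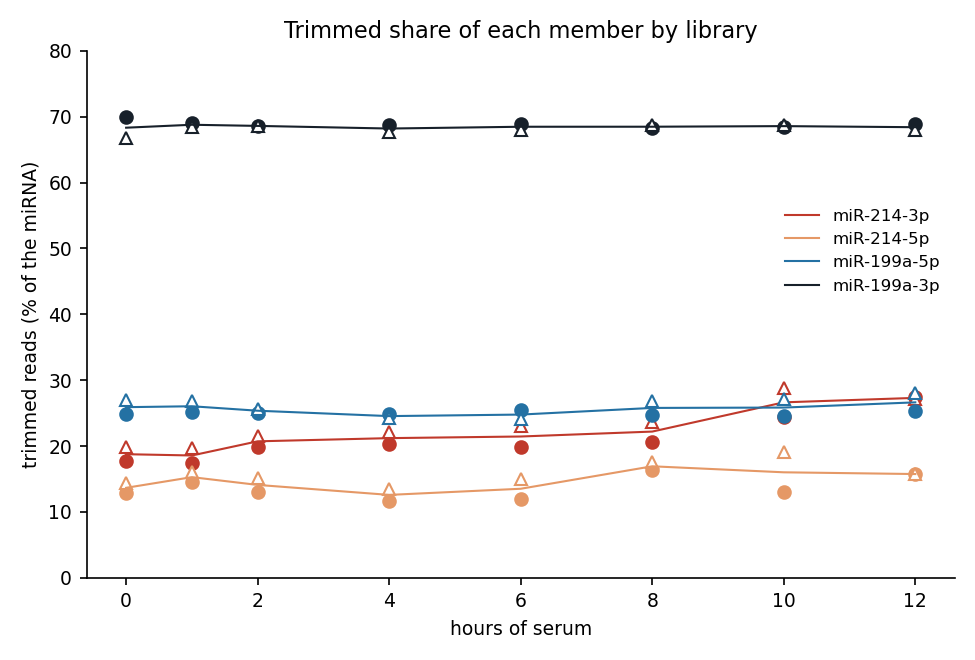
Trimmed reads as a percentage of all reads of each miRNA against hours of serum; circles are replicate 1, triangles replicate 2 and lines the mean of the 2. The miR-214-3p share passed from 18.8% at 0 h to 27.3% at 12 h, while the mean of miR-199a-5p was 25.9% and 26.6% at the same times and miR-199a-3p stayed near 68.3%.

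The share of reads equal to the reference fell in miR-214-3p, miR-199a-5p and miR-199a-3p, with slopes of -0.0357, -0.0287 and -0.0259 log2 odds units per hour (edgeR adjusted p of 2.59e-05, 1.92e-05 and 1.92e-05). It was not called in miR-214-5p (-0.0235, adjusted p = 0.120). Of 234 miRNAs tested, 32.5% fell in this share and 46.2% were called in either direction. In counts, the reference reads of miR-199a-3p fell from 3221 ± 471 to 2545 ± 2.19 CPM and those of miR-199a-5p from 1747 ± 61.1 to 1347 ± 324 CPM, with slopes called in the fit over class entries (edgeR adjusted p = 0.00143 and 0.0025). For miR-199a-5p the 12 h reference values were 1576 CPM in replicate 1 and 1118 CPM in replicate 2, and its slope was not called in the run of replicate 1 alone (-0.0131, adjusted p = 0.0925, edgeR).

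The 3' extended share rose in the same 3 miRNAs. It passed from 8.56% ± 0.118 at 0 h to 12.0% ± 0.121 at 12 h in miR-199a-3p (slope 0.0479 ± 0.00408, adjusted p = 1.51e-08, edgeR). In miR-199a-5p it passed from 21.8% ± 1.63 to 26.1% ± 0.276 (slope 0.0363 ± 0.00595, adjusted p = 4.24e-05). In miR-214-3p the rise was from 12.5% ± 0.380 to 13.9% ± 0.695 (slope 0.0258 ± 0.00693, adjusted p = 0.00531), and it was not called in the run of replicate 1 alone (0.0238, edgeR adjusted p = 0.121). In miR-214-5p the share was 0.589% ± 0.216 and 1.28% ± 0.338, from 6 to 20 reads per library. Its slope of 0.0453 ± 0.0207 was not called (adjusted p = 0.138, edgeR). Of 226 miRNAs tested, 32.7% rose in this share and 43.8% were called in either direction. In level, the 3' extended reads of miR-199a-3p rose from 1250.1 ± 46.4 to 1654 ± 73.7 CPM (slope 0.0301, edgeR adjusted p = 0.000825), a rise not called in the run of replicate 2 alone (0.0261, adjusted p = 0.0849, edgeR). Those of miR-214-5p had a similar slope on few reads that was not called (0.0295 ± 0.0252, edgeR adjusted p = 0.412). Those of miR-199a-5p were not called over both runs (0.00437, edgeR adjusted p = 0.777) but were in the run of replicate 1 alone (0.0193, edgeR adjusted p = 0.0244).

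Bases that do not match the hairpin (non-templated) made up most of these extensions: 8.13% to 11.7% of miR-199a-3p reads had them, against 0.342% to 0.519% with added bases that match (templated). In miR-199a-5p the ranges were 12.7% to 18.2% and 5.76% to 9.57%. Both parts were higher at 12 h in that arm. Its non-templated 3' share passed from 15.4% ± 1.73 at 0 h to 17.1% ± 1.11 at 12 h. Its templated 3' share passed from 6.33% ± 0.100 to 8.98% ± 0.831, a trend that was not tested. For comparison, the hairpin continues after the 3' end with CAC in miR-214-3p, AGA in miR-214-5p, AGG in miR-199a-5p and GAC (Mir199a-2) or GGC (Mir199a-1) in miR-199a-3p. The share of non-templated reads rose in miR-199a-3p, miR-199a-5p and miR-214-3p by 0.0476, 0.0228 and 0.0273 log2 odds units per hour (edgeR adjusted p = 5.10e-08, 0.0280 and 0.0106), against 30.8% of 214 miRNAs that rose and 37.4% called in either direction. The call for miR-199a-5p was lost without any 1 of 4 libraries (replicate 1 of 10 h and 12 h, replicate 2 of 0 h and 1 h), with slopes of 0.0175 to 0.0211. That for miR-214-3p was lost in the run of replicate 1 alone (0.0262, edgeR adjusted p = 0.0889). In miR-214-5p the non-templated share had a slope of 0.0468 ± 0.0234 that was not called (edgeR adjusted p = 0.179), from 5 to 16 such reads per library.

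Reads with only A added at the 3' end, a part of the non-templated reads, were called higher in share in both miR-199a arms. The hairpin continues with A after miR-199a-5p and miR-214-5p, so a lone added A there matches it and would count as templated. A-added shares of these arms leave out such reads and cannot be compared in size with those of the other arms. In miR-199a-5p the A-added reads were few, 0.250% ± 0.0227 of reads at 0 h, and rose to 0.593% ± 0.0781 at 12 h (slope 0.110 ± 0.0141 log2 odds per hour, adjusted p = 8.71e-06, edgeR). In level these reads were at 8.33 ± 0.487 CPM at 0 h and 16.6 ± 1.25 CPM at 12 h. In miR-199a-3p the share rose from 4.50% ± 0.977 to 6.67% ± 1.41 (slope 0.0514 ± 0.0148, adjusted p = 0.0165), a call lost without the replicate 1 library of 0 h, without the replicate 2 library of 12 h and without both 0 h libraries (edgeR adjusted p of 0.0578 to 0.0672). In miR-214-3p it was 3.73% ± 0.561 and 3.73% ± 1.13, with a slope of 0.0221 ± 0.0173 that was not called (adjusted p = 0.375, edgeR) but was called with the replicate block (0.0223, adjusted p = 0.0459). Non-templated 3' additions listed as mixed were more frequent than A-added or U-added reads in miR-214-3p. They made up 5.50% ± 0.189 of its reads at 0 h and 6.92% ± 0.175 at 12 h, and their trend was not tested. A-added reads of miR-214-5p were too few to test. Of 155 miRNAs tested, 18.1% rose in A-added share and 20.6% were called in either direction.

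U-added reads were 14.7% ± 1.63 of miR-199a-5p at 0 h, the highest U-added share of the 4, and 15.7% ± 1.24 at 12 h. Their share was called in none of the 4 (slopes 0.00382 to 0.0276, edgeR adjusted p of 0.0687 to 0.926), against 17.5% of 143 miRNAs called and 3.5% called higher. With the replicate block it rose in miR-199a-3p (0.0206 per hour without and with the block, adjusted p = 0.000491 with it, edgeR) and in miR-199a-5p (adjusted p = 0.00148). In miR-199a-3p it was also called without the replicate 2 library of 12 h (0.0268, edgeR adjusted p = 0.0289) and in the run of replicate 1 alone (0.0236, edgeR adjusted p = 0.00849). Against reference-equal reads only, both were called (0.0409 and 0.0301, edgeR adjusted p = 0.00274 and 0.0162).

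At the 5' end, miR-214-3p stood apart in amount: 12.4% to 17.3% of its reads were extended there, against at most 1.30% in miR-199a-3p and at most 4 reads per library in miR-214-5p and miR-199a-5p. A read with another 5' end carries another seed. The 5' extended share of miR-214-3p passed from 15.9% ± 0.987 to 12.6% ± 0.358 (slope -0.0331 ± 0.00783, adjusted p = 0.00505, edgeR), where 3.33% of 60 tested miRNAs were called lower and 13.3% in either direction. Set against reads equal to the reference only, the slope was -0.00997 (edgeR adjusted p = 0.546), so the 5' extended reads were not shown to fall faster than the reference reads. In each run alone the slope was -0.0300 and -0.0362 and was not called (adjusted p = 0.0726 and 0.0640). In miR-199a-3p the share was not called (-0.0184, adjusted p = 0.344), except with the replicate block (-0.0183, adjusted p = 0.0107, edgeR).

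**Figure D5:**
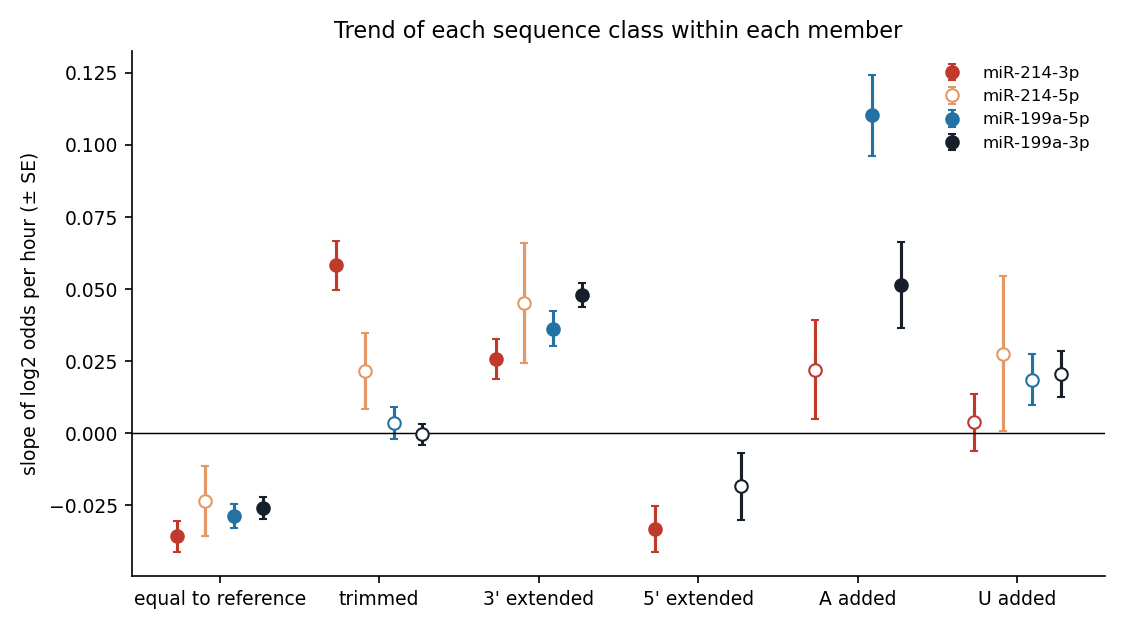
Slope of the log2 odds of each end class per hour, with its SE, for each of the 4 miRNAs; filled points had an adjusted p under 0.05 and classes with too few reads are left out. The trimmed slope is 0.0582 in miR-214-3p and -0.00036 in miR-199a-3p, while the 3' extended slope is 0.0258 in miR-214-3p and 0.0479 in miR-199a-3p.

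Over the 16 libraries the levels of the 4 miRNAs went together to different degrees, given here as a description of libraries that share their times and runs. Pearson's r of log2 CPM was 0.811 between miR-199a-5p and miR-214-5p, 0.604 between miR-199a-5p and miR-214-3p, and 0.257 between the arms of the miR-214 hairpin. Out of 265 candidates that averaged 10 CPM or more, those most like miR-214-3p were miR-467a-5p (r = 0.877), miR-335-3p (r = 0.862) and miR-671-5p (r = 0.860). All 3 fell by the trend test, with slopes of -0.0616, -0.118 and -0.0566, where 13.1% of all tested miRNAs were called lower. They were picked for likeness to a falling miRNA over the same libraries, so their falls are not a separate result. miR-335-3p also had the highest trimmed-share slope of the 225 miRNAs tested (0.129 ± 0.0110), whereas miR-467a-5p and miR-671-5p were not among the 14 highest. Those most like miR-214-5p were miR-450a-5p (r = 0.911), miR-322-5p and miR-322-3p (r = 0.861 and 0.846). miR-26a-5p (r = 0.833) was nearest to miR-199a-5p, and let-7a-1-3p (r = 0.803) to miR-199a-3p.

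None of the other listed miRNAs that are abundant in mesenchymal cells was called lower at 12 h by the main test. Of 16 listed and measured, 5 rose, 0 fell and 11 were not called at 12 h, with a median log2 difference of 0.18 against 0.00467 over all 449 tested, of which 8.24% were called higher and 6.01% lower. These counts are from edgeR, and limma-voom and DESeq2 gave 5 and 0 as well, while 6 rose and 1 was lower at an unadjusted p under 0.05. With the replicate number as a block, 7 rose and 1, miR-145a-5p, fell. By edgeR's trend test 6 rose and 0 fell, or 6 and 1 with the block or with no adjustment, where 12% of all tested miRNAs were called higher. miR-29a-3p, which represses collagen messages, rose from 3493 ± 358 CPM at 0 h to 5509.6 ± 136 CPM at 12 h (log2 0.66 ± 0.11, adjusted p = 0.00119, edgeR). The largest difference belonged to miR-10b-5p, a miRNA at 3.22 ± 0.800 CPM at 0 h, and was not called (log2 0.98 ± 0.51, adjusted p = 0.230). The 2 lowest were miR-145a-5p, a smooth muscle miRNA (-0.37 ± 0.15, adjusted p = 0.135), and miR-99a-5p (-0.20 ± 0.17, adjusted p = 0.508), neither of them called. Of the hairpins related to the cluster, only miR-199b-5p of the paralogous Mir199b had entries, at 5.64 ± 0.0623 CPM at 0 h and 4.34 ± 1.47 CPM at 12 h (slope -0.0321 ± 0.0149 per hour, adjusted p = 0.124, edgeR).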

How the data were processed

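Small RNA of 16 libraries was used. The deposited table holds the authors' raw read counts per miRNA and end class, 1 column per library, per the file headers. The submitters' processing notes list CASAVA 1.8.0. No aligner, miRBase release or genome build is given in the sources used here. Of 6511 entries, 1 identical duplicate was dropped. The templated and non-templated counts of the 4 end classes were summed per miRNA, so each read counted once. TMM-scaled CPM (factors 0.935 to 1.07) are means ± SD over 2 libraries, and the reads carry no molecular identifiers.

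Levels were tested with edgeR 4.0.16 (limma 3.58.1, R 4.3.3), by quasi-likelihood F tests over all miRNAs with filterByExpr (minimum count 10) and Benjamini-Hochberg adjustment at 0.05. This left 449 miRNAs. SE is the change over the square root of F. Class shares were tested on class and remaining counts with a term per library, for miRNAs with means of at least 100 reads and 5 in each part. Read ratios and odds of trimming of the 6 pairs, with 0.5 reads added, were tested by 2-sided permutation of times (100000 resamples). Changes are called at an adjusted p under 0.05. The fits of levels and of the trimmed share were tested on simulated data. Those data had no run or replicate effect, so they do not cover deviations shared by same-numbered libraries.

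Same-numbered libraries deviated together from their time means at all 28 pairs of times (r from 0.208 to 0.800, 266 miRNAs), and each number is 1 run. The main fits and permutation tests nonetheless carried no term for the replicate number, so their p-values ignore this pairing. It entered only as a block among the alternatives. Alternatives were DESeq2 1.42.0 size factors and test, limma-voom, unscaled totals, other filters, reference-equal reads, a block, each run alone, no 0 h libraries and each library left out. The per-class fit, A-added and U-added shares and tests between runs were added after the data were seen. The members, lists and the naming rule (the 4 miRNAs, the related and mesenchymal lists with their 2 largest rises and falls, and the 3 miRNAs most correlated with each member) were chosen with earlier results of these data known.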

Additional observations from a re-analysis of the deposited data

How the results depend on the processing

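The 12 h call of miR-214-3p held in all 25 alternatives (log2 -0.97 to -0.75), its trend in all 27 (-0.0713 to -0.0486 per hour) and its trimmed-share trend in all 23 (0.0530 to 0.0631). Where others changed, the cause was not tested. With the replicate block, trends of miR-199a-5p (-0.0205) and the 5' extended share of miR-199a-3p (-0.0183) were called, as were the class trends of reference miR-214-5p (-0.0206) and 5' extended miR-199a-3p (-0.0306), any-change calls rose from 62 to 110, 12 h calls from 64 to 108 and 5' extended calls from 8 to 15; beyond these and the values given beside results the block changed no other call of the 4. Any-change calls were 101 with no filter and 39 for miRNAs averaging 10 CPM or more, where the miR-199a-5p trend was called (-0.0203). Unscaled totals gave called trends of -0.0222 (miR-199a-3p) and -0.0332 (miR-199a-5p), and reference-equal reads -0.0244 and -0.0278 (per class, unscaled totals also gave called trends of -0.0222 in trimmed and -0.0412 in 5' extended miR-199a-3p and -0.0288 in reference miR-214-5p); at 2 h miR-199a-3p turned to -0.0350 and -0.0471 log2 under these. Unscaled totals moved the split of trend calls from 54 higher and 59 lower to 37 and 111, and at 12 h from 37 and 27 to 23 and 45.

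In the run of replicate 1 alone, trends turned positive in miR-199a-3p (0.00258), miR-199a-5p (0.000604) and miR-214-5p (0.00289), and the trimmed-share slope of miR-199a-5p was -0.000523. The 3' extended (0.0238), 5' extended (-0.0300) and non-templated (0.0262) slopes of miR-214-3p lost their call there. The ratio slope of miR-214-5p to miR-199a-3p was 0.000278 in that run, and 0.0129 with reference-equal reads over both runs. In the run of replicate 2 alone the miR-199a-5p trend was -0.0389, trend calls fell from 113 to 55 (59 without the 0 h libraries), trimmed-share calls from 103 to 62 (62 at a mean of at least 1000 reads), the trimmed slope of miR-199a-3p was 0.00363, the 5' extended slope of miR-214-3p -0.0362, and the ratio slopes of miR-214-3p -0.0377, -0.0243 and -0.0458, no longer called. Odds of trimming of miR-214-3p against miR-214-5p lost their call in each run (0.0413, 0.0321) and without 0 h (0.0384). Against reference-equal reads, trimmed slopes were 0.0206 (miR-199a-3p) and 0.0169 (miR-199a-5p), and 5' extended slopes 0.00256 (miR-199a-3p) and -0.00997 (miR-214-3p).

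Uncalled values that changed sign were the 2 h difference of miR-214-5p (0.00095 with no filter, 0.0048 with only those libraries), the 4 h difference of miR-199a-5p (0.00933 with only those libraries), and, with unscaled totals and in run 2, the class trends of trimmed miR-214-5p (-0.00706, -0.00575) and 3' extended miR-199a-5p (-0.00516, -0.00627).

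Leaving out each library in turn (both replicates of every time) gave 36 to 60 any-change calls, 36 without the replicate 2 library of 0 h, and 37 to 65 calls at 12 h, under 43 without any 1 of the 0 h and 12 h libraries. The trend of miR-199a-5p was -0.0257 to -0.0117 and was called without the replicate 1 library of 12 h. Its non-templated slope was 0.0175 to 0.0277, not called without 4 of the libraries. The trimmed slopes were -0.00316 to 0.00192 for miR-199a-3p and -0.00132 to 0.00653 for miR-199a-5p. The ratio slope of miR-214-5p to miR-199a-3p was -0.00756 to 0.00341. The trimming slope differences were 0.0320 to 0.0409 for miR-214-3p against miR-214-5p, not called without the replicate 1 library of 12 h, and -0.00206 to 0.00972 for miR-199a-5p against miR-199a-3p. The class trend of trimmed miR-214-5p was -0.00147 to 0.0129. Uncalled log2 differences from 0 h that changed sign ranged from -0.15 to 0.0685 for miR-214-3p at 1 h. For miR-214-5p they ranged from -0.12 to 0.10 at 2 h, -0.12 to 0.0322 at 4 h, -0.25 to 0.15 at 6 h, -0.38 to 0.0159 at 8 h, -0.33 to 0.0637 at 10 h and -0.36 to 0.0342 at 12 h. For miR-199a-5p they ranged from -0.0598 to 0.0330 at 4 h and -0.19 to 0.0436 at 6 h. The 8 h call of miR-214-3p was lost in each of these 16 fits (log2 -0.40 to -0.38). With 2 libraries per time, single time differences rest on few values, and miR-214-5p classes other than reference and trimmed held too few reads to follow.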

Other observations

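Reads with only C added at the 3' end separated the 2 runs in some miRNAs. For miR-199a-3p they numbered 896 to 1086 per library (0.919% to 1.15% of its reads) in the run of replicate 1 and 6 to 26 (0.00781% to 0.0232%) in that of replicate 2, with no overlap. For miR-214-3p, templated 3' extensions, whose first base after the mature end is also C, numbered 31 to 66 per library in the run of replicate 1 and 0 to 5 in that of replicate 2. Over all miRNAs the C-added share was 0.670% to 1.19% and 0.253% to 0.967%. For miR-199a-5p, C-added reads numbered 10 to 30 and 8 to 15. A-added reads of miR-199a-3p made up 3.81% to 5.77% of its reads in the run of replicate 1 and 5.20% to 7.67% in that of replicate 2. Each run held 1 library of every time, and run and experiment cannot be told apart.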
